A study of Mus musculus with 16 samples.

Results

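Expression of 10 fibroblast growth factor (FGF) genes was examined in type II cells of the mouse alveolar epithelium (AT2 cells), which make surfactant: the 6 ligands Fgf10, Fgf7, Fgf1, Fgf2, Fgf9 and Fgf18 and the 4 receptors Fgfr1, Fgfr2, Fgfr3 and Fgfr4. Members were taken by annotated gene symbol. All 10 were found, with 45 array features among them, out of 20725 genes and 31439 named features. For each gene the feature with the highest mean over the 16 samples was used, and its other features are given beside it.

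The samples were total RNA from AT2 cells of pups 3 days old, measured on single-colour arrays labelled with Cy3. Wild-type pups in normoxia (room conditions without added oxygen) gave 4 samples and Fgf10+/- pups, which carry 1 functional Fgf10 allele, gave 4. Wild-type pups kept in a chamber with 85% oxygen from day 0 to day 3 after birth (hyperoxia) gave 6 samples and Fgf10+/- pups in the same hyperoxia gave 2. These numbers follow the sample titles, whereas the text of the series gives 4 samples per group. How the AT2 cells were purified, whether a sample holds 1 or several pups, and what separates the replicates are not stated in the labels, so p-values measure the spread between these samples, which may in part be technical. High oxygen after birth serves in mice to model bronchopulmonary dysplasia, the chronic lung disease of preterm infants.

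FGFs are secreted ligands that bind receptor tyrosine kinases together with heparan sulfate. In the developing lung Fgf10 and Fgf7 are made mainly by mesenchymal cells and signal to the epithelium through the epithelial splice form of Fgfr2, which drives branching and AT2 maintenance. Fgf9 comes from mesothelium and epithelium and signals to mesenchyme, and Fgf18 takes part in alveolar formation. Fgf1 and Fgf2 are ligands without a classical secretion signal. Fgfr3 and Fgfr4 act together in the formation of alveoli after birth.

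Levels are on the log2 scale of the authors' normalized intensities, where a difference of 1 is a 2-fold change. That the base is 2 was read from the range of the values and is not stated in the labels. The table has no detection flags. A level of 4.29 was therefore used as a mark of weak signal: 95% of the 1619 features for olfactory, vomeronasal and trace amine receptors, genes with little expression in lung, had a lower mean. By this mark the chosen features of 8 members were measured in all 4 groups, and those of Fgf7 and Fgf2 fell below it in at least 1 group. For Fgf10 this rests on the brightest of 10 features. The mean of the 10 was 3.98 in Fgf10+/- normoxia, below the mark. The AT2 markers were high in all samples, with a mean of 10 markers between 11.14 and 12.40. The mean of 3 club cell markers was also high, between 12.44 and 14.51, so these values do not show how pure the AT2 samples were. The 8 smooth muscle and pericyte markers averaged 9.41 on the array of wild-type normoxia replicate 1, while the remaining 7 normoxia samples ranged from 6.40 to 6.90 in wild type and from 6.11 to 7.10 in Fgf10+/-, and the 8 hyperoxia samples from 7.50 to 8.63. Replicate 1 was higher than the other 7 normoxia samples in 8 of these 8 markers, so the results it moved are also given without it. This sample was singled out after its values were seen. Setting aside a normoxia sample that lies with the hyperoxia samples tends by itself to widen a difference and lower its p-value. Results without replicate 1 therefore describe its influence and are not separate support. In bulk RNA, more cells of a type and more RNA per cell cannot be told apart.

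Of the 4 receptors, Fgfr4 and Fgfr3 rose in hyperoxia when the effect was averaged over both genotypes. Fgfr4 was 5.22-fold higher, a difference of 2.38 on the log2 scale (95% interval 1.36 to 3.40), and Fgfr3 was 1.86-fold higher, a difference of 0.90 (0.51 to 1.29). Fgfr1 and Fgfr2, the main receptor of Fgf10 and Fgf7, differed by 0.36 (-0.15 to 0.87) and 0.09 (-0.32 to 0.49) and did not pass the test. None of the 6 ligands passed by its chosen feature with all 16 samples. The 2 called members compare with 11.1% of all 20725 genes called in this comparison, with 4.97% called higher. Over all genes 1030 were higher and 1272 lower, or 1450 and 803 with arrays centred on the median of the tested genes, and both receptors passed either way.

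Fgfr4 encodes a receptor best known as the liver partner of endocrine FGFs and is also expressed in the postnatal lung. Its feature read 8.91, 5.45, 5.80 and 5.13 in wild-type normoxia replicates 1 to 4. In Fgf10+/- normoxia it read 4.29, 5.46, 4.69 and 4.81. In wild-type hyperoxia the lowest, median and highest values were 7.16, 7.95 and 9.04 (n = 6), and both Fgf10+/- hyperoxia samples were at 7.81. Thus 7 of the 8 normoxia samples lay below all 8 hyperoxia samples, and wild-type normoxia replicate 1 lay among the hyperoxia samples. With that sample set aside, Fgfr4 joined Fgfr3 in having no overlap (2.51% of all genes). The averaged difference had an adjusted p of 0.00483 (limma with Benjamini-Hochberg adjustment over all genes, SE 0.48). Without replicate 1 the wild-type normoxia mean fell from 6.33 ± 1.75 (SD, n = 4) to 5.46 ± 0.33 (n = 3), and the averaged difference became 2.81 (2.20 to 3.43, limma adjusted p = 4.16e-05).

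Within wild type Fgfr4 differed by 1.77 (0.55 to 2.99, limma adjusted p = 0.113), and without replicate 1 by 2.63 (1.85 to 3.41, adjusted p = 0.0014). Within Fgf10+/-, where both hyperoxia samples exceeded each of the 4 normoxia samples (12.4% of all genes were higher without overlap), it differed by 3.00 (1.36 to 4.64, limma adjusted p = 0.0519). This comparison does not use replicate 1 except through the shared estimate of the spread, and without that sample its interval was 2.05 to 3.95 (adjusted p = 0.0046). The other Fgfr4 feature was weak, with a mean of 4.45, and differed by 0.35 in the averaged comparison (SE 0.27). Averaging both features left a difference of 1.37 (limma adjusted p = 0.0202). Fgfr4 therefore rests on 1 bright feature. In Fgf10+/- normoxia that feature had a mean of 4.81 and a lowest value of 4.29, close to weak signal. The size of its differences is therefore uncertain.

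Fgfr3, a receptor expressed in lung epithelium and mesenchyme, read 10.22, 10.04, 10.15 and 9.45 in wild-type normoxia. In Fgf10+/- normoxia it read 9.86, 8.85, 9.98 and 9.39. The lowest, median and highest values in wild-type hyperoxia were 10.52, 10.56 and 10.81 (n = 6), and the Fgf10+/- hyperoxia samples read 10.51 and 10.82. The lowest hyperoxia sample was higher than the highest normoxia sample, replicate 1 included, and no other member showed this (1.84% of all genes did). The averaged difference had a limma adjusted p of 0.00519 (SE 0.18), and without replicate 1 it was 0.94 (0.53 to 1.35). By genotype it was 0.65 in wild type (0.19 to 1.12, limma adjusted p = 0.124) and 1.15 in Fgf10+/- (0.52 to 1.77, adjusted p = 0.0509). The second feature of Fgfr3, with a mean of 5.35, differed by 0.34 (SE 0.24).

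Both calls were lost when the 4 libraries highest in thymocyte markers were left out: Fgfr4 was then at 2.25 (limma adjusted p = 0.107) and Fgfr3 at 0.58 (adjusted p = 0.097). Those libraries were wild-type normoxia replicate 4 and Fgf10+/- normoxia replicates 1, 2 and 4, so 1 Fgf10+/- normoxia sample remained. In them the mean of 10 thymocyte markers was 5.54 to 6.43, against 4.01 to 4.75 in the other 12 samples.

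**Figure D1:**
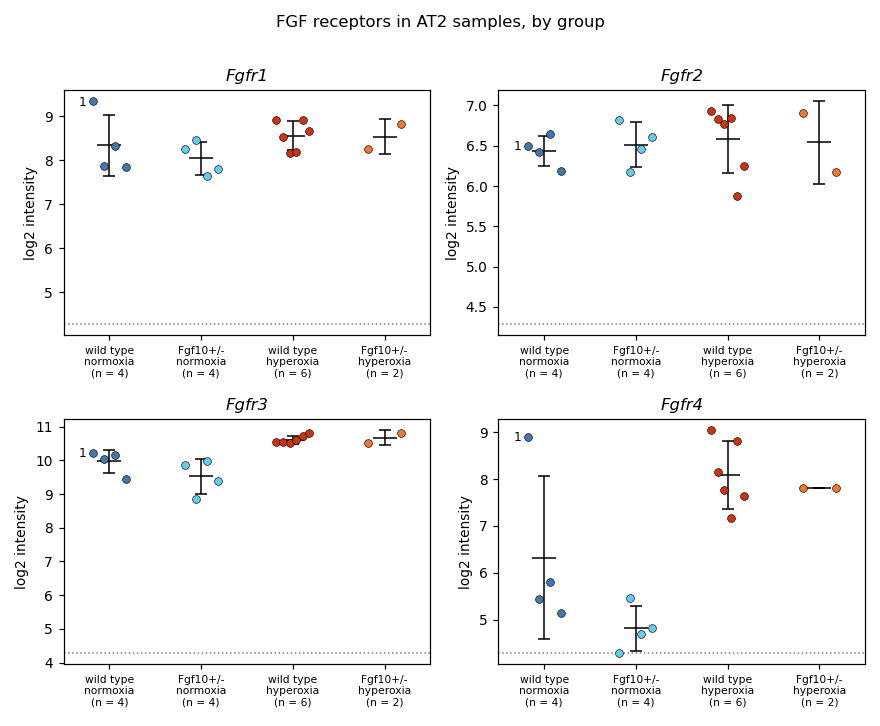
Log2 intensity of the chosen feature of each FGF receptor (y axis, a separate scale per panel) in the 4 groups (x axis); points are samples, bars are the mean ± SD, 1 marks wild-type normoxia replicate 1, and the dotted line is the weak-signal level of 4.29. In the Fgfr4 panel that sample sits at 8.91 among the hyperoxia samples, and in the Fgfr3 panel the lowest hyperoxia sample, 10.51, lies above the highest normoxia sample, 10.22.

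The sequences just upstream of Fgfr4 and Fgfr3 are shown because these were the members that rose with hyperoxia. They are the 250 bases before the annotated start, from RefSeq on GRCm38.p6, 5′ to 3′ on the plus strand, at chr13:55152568-55152817 for Fgfr4 and chr5:33721474-33721723 for Fgfr3, the first of its 2 listed starts. Capitals mark matches, on either strand, to a TATA box (TATAAA), a GC box (GGGCGG), an AP-1 site (TGANTCA), an antioxidant response element (TGACNNNGC) or the core of the hypoxia response element (ACGTG).
Fgfr4: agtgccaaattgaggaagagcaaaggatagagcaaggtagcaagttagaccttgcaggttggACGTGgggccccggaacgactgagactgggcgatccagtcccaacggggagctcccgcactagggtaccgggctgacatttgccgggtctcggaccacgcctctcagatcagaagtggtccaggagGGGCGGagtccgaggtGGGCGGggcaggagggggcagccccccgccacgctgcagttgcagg
Fgfr3: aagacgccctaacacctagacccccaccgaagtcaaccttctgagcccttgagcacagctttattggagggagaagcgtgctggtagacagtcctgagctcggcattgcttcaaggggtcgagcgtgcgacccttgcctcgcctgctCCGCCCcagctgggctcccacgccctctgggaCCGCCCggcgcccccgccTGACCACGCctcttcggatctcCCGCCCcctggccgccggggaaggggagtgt
Both windows were rich in G and C, at 64% and 66.8% against a median of 52.4% over 32851 promoter windows, with 15 and 19 CpG pairs against a median of 6. Fgfr4 held 2 GC boxes and 1 match to the hypoxia response core, and Fgfr3 held 3 GC boxes and 1 match to the antioxidant response element, none overlapping. Of all windows of this length 32.7% held a GC box, 16.6% the hypoxia response core, 10.2% the antioxidant response element, 12.4% a TATA box and 6.75% an AP-1 site. Such matches describe letters only.

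Fgfr2 showed no difference that passed, in any comparison. Its brightest feature read 6.50, 6.42, 6.64 and 6.19 in wild-type normoxia and 6.82, 6.17, 6.46 and 6.61 in Fgf10+/- normoxia. It ran from 5.88 over a median of 6.80 to 6.93 in wild-type hyperoxia (n = 6), and read 6.90 and 6.18 in Fgf10+/- hyperoxia. The lowest hyperoxia samples were wild-type replicates 5 and 6 and Fgf10+/- replicate 2, at 5.88, 6.25 and 6.18. These samples also had the lowest AT2 marker means in hyperoxia, 11.46, 11.54 and 11.14, and a link between the 2 was not tested. All 4 groups overlapped. The other 10 Fgfr2 features share its accession and lay lower, with means of 5.13 to 5.58. Their mean per sample was 5.49 ± 0.13 (SD, n = 4) and 5.32 ± 0.21 (n = 4) in normoxia and 5.37 ± 0.45 (n = 6) and 5.21 ± 0.52 (n = 2) in hyperoxia, wild type first. None of the 11 features passed in the averaged comparison, where they differed by -0.43 to 0.30. The 95% interval of the brightest feature leaves room for a change of up to 0.49 upwards and -0.32 downwards. Which splice form of Fgfr2 these features detect is not stated in the labels.

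Fgfr1, the receptor of mesenchymal cells and of many FGFs, read 9.33, 7.86, 8.31 and 7.84 in wild-type normoxia and 8.26, 8.45, 7.65 and 7.80 in Fgf10+/- normoxia. In wild-type hyperoxia it ran from 8.16 to 8.92 with a median of 8.58, and the Fgf10+/- hyperoxia samples read 8.25 and 8.81. Replicate 1 of wild-type normoxia was again the highest, here above every other sample. Without it the averaged difference was 0.52, which did not pass (limma adjusted p = 0.101). The other 2 Fgfr1 features, with means of 4.78 and 4.64, differed by -0.31 and 0.61.

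Among the ligands, Fgf10 is the gene targeted in the Fgf10+/- pups. Its signal was weak: the chosen feature read 5.89, 4.27, 4.50 and 4.32 in wild-type normoxia and 4.22, 4.77, 4.02 and 4.68 in Fgf10+/- normoxia. In wild-type hyperoxia it ran from 4.71 over a median of 5.14 to 5.45 (n = 6), and the Fgf10+/- hyperoxia samples read 5.38 and 4.76. Fgf10+/- differed from wild type by -0.32 in normoxia (SE 0.32) and by -0.06 in hyperoxia (-0.84 to 0.72), and neither passed (limma adjusted p = 0.961 and 1). Where the features lie relative to the altered allele is not stated in the labels, so these values do not check the genotype labels.

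The array carried 10 features for Fgf10 with 1 accession, and whether they are repeats of 1 probe is not given. The SD among them on 1 array had a median of 0.38. On this mean, wild-type normoxia replicates 1 to 4 stood at 5.91, 4.04, 3.80 and 4.31, and Fgf10+/- normoxia replicates at 3.84, 4.13, 4.06 and 3.89. The wild-type hyperoxia samples stood at 4.93, 5.01, 4.84, 4.55, 5.21 and 5.05, and the Fgf10+/- hyperoxia samples at 4.90 and 5.36. So 7 of the 8 normoxia samples were no higher than 4.31, close to the weak-signal level of 4.29, and no hyperoxia sample was under 4.55. In wild-type normoxia replicate 1 the 10 features read 5.78 to 6.03, an SD of 0.08, so its high value was shared by all 10.

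Whether Fgf10 passed in hyperoxia turned on the feature and on replicate 1. With all samples the averaged difference was 0.52 for the chosen feature (limma adjusted p = 0.192) and 0.78 for the mean of 10 features (adjusted p = 0.0659). Tested one by one with all samples, the 10 features differed by 0.49 to 1.23, all upwards. They may be repeats of 1 probe, so they are not 10 separate observations. Of these features 1 passed (1.23, limma adjusted p = 0.0217 over all named features). By chosen features, 11.1% of all genes were called in the averaged comparison, with 4.97% called higher. Without replicate 1 the chosen feature differed by 0.71 (0.33 to 1.09, limma adjusted p = 0.0192) and the mean of 10 by 1.01 (0.70 to 1.33, adjusted p = 6.96e-04). On that mean without replicate 1, hyperoxia samples were higher by 0.88 in wild type (limma adjusted p = 0.0223) and by 1.15 in Fgf10+/- (adjusted p = 0.021). With normoxia values this close to weak signal, such differences may understate a change. Without replicate 1, Fgf10+/- and wild-type normoxia differed by 0.06 for the chosen feature, with 4.05 ± 0.26 (SD, n = 3) in wild type and 3.98 ± 0.14 (n = 4) in Fgf10+/- on the mean of 10.

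**Figure D2:**
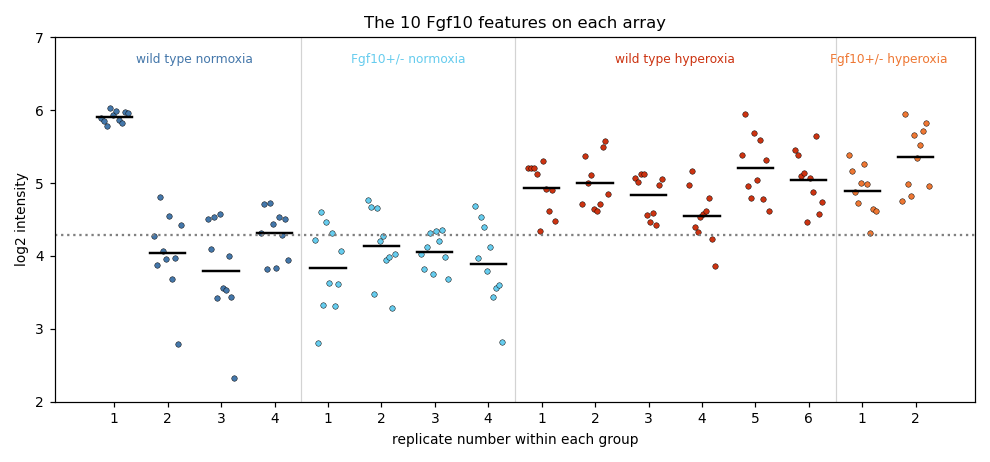
Log2 intensity (y axis) of the 10 Fgf10 features on each of the 16 arrays (x axis, replicate number within each group); points are features, black lines their mean, and the dotted line the weak-signal level of 4.29. The 10 features of wild-type normoxia replicate 1 lie between 5.78 and 6.03, while the means of the other 7 normoxia arrays lie at or below 4.31 and those of the 8 hyperoxia arrays at or above 4.55.

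Fgf7, another ligand of epithelial Fgfr2, had 1 feature and a partly similar pattern. It read 5.96, 3.96, 3.85 and 4.58 in wild-type normoxia and 3.62, 4.70, 1.90 and 4.46 in Fgf10+/- normoxia. In wild-type hyperoxia it ran from 4.59 over a median of 5.41 to 6.63 (n = 6), and the Fgf10+/- hyperoxia samples read 5.12 and 5.02. Replicate 1 was the only wild-type normoxia sample above 4.58. Fgf10+/- normoxia replicate 2, at 4.70, exceeded the lowest wild-type hyperoxia sample, at 4.59, so the conditions overlapped also without replicate 1. The averaged difference was 1.14 (0.23 to 2.06, limma adjusted p = 0.102), and without replicate 1 it was 1.37 (0.52 to 2.22, adjusted p = 0.0378). Within Fgf10+/- Fgf7 differed by 1.40 (-0.07 to 2.86, limma adjusted p = 0.326). The normoxia mean there, 3.67, lay under the weak-signal level and rested on replicate 3 at 1.90. Without Fgf10+/- normoxia replicate 3 the Fgf7 difference was 0.81 in Fgf10+/- and 0.85 in the averaged comparison (limma adjusted p = 0.524 and 0.147).

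With all 16 samples neither Fgf10 nor Fgf7 passed by its chosen feature. Without replicate 1, set aside after its values were seen, both passed along with Fgfr4 and Fgfr3. The upstream windows of Fgf10 and Fgf7 are shown beside those of the receptors for that reason only. They lie on the plus strand at chr13:118714449-118714698 and chr2:126034408-126034657 (RefSeq, GRCm38.p6, the 250 bases before the start), with capitals for the same 5 motifs.
Fgf10: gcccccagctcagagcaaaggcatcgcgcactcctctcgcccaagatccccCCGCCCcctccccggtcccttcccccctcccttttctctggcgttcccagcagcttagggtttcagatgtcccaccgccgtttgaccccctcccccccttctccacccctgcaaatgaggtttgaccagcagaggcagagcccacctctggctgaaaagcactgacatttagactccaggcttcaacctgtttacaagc
Fgf7: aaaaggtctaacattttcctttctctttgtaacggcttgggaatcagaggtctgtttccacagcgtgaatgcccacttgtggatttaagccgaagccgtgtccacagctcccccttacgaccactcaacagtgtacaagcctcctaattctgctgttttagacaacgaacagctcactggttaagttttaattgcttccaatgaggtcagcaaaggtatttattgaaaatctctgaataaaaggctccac
Fgf10 held 1 GC box and Fgf7 none of the 5 motifs. Their GC contents were 61.2% and 43.6%. No motif of the 5 was present in all 4 windows.

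The smooth muscle and pericyte list split the samples as Fgfr4 did, and the fibroblast list did so only in part. The 10 fibroblast markers averaged 10.30 on the array of wild-type normoxia replicate 1, against 7.93 to 8.90 for the remaining 7 normoxia arrays and 8.44 to 9.75 in hyperoxia, so apart from replicate 1 the conditions also overlapped. On the smooth muscle and pericyte list, as on Fgfr4, replicate 1 stood with or above the hyperoxia samples, and the other 7 normoxia samples stood below all of them. Of the fibroblast markers 1 of 10 was called higher in the averaged comparison, and of the smooth muscle markers 2 of 8, where 4.97% of all genes were. These calls kept replicate 1 among the normoxia samples. The mean in hyperoxia was above that in normoxia for 8 of the 10 fibroblast markers and 7 of the 8 smooth muscle markers. None of the markers of either list was weak in all 4 groups. The mean of the 8 endothelial markers was 6.84 to 8.13 in normoxia and 7.34 to 8.82 in hyperoxia, and 2 of the 8 rose. Their part in the results for Fgfr4, Fgf10 and Fgf7 was not tested.

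**Figure D3:**
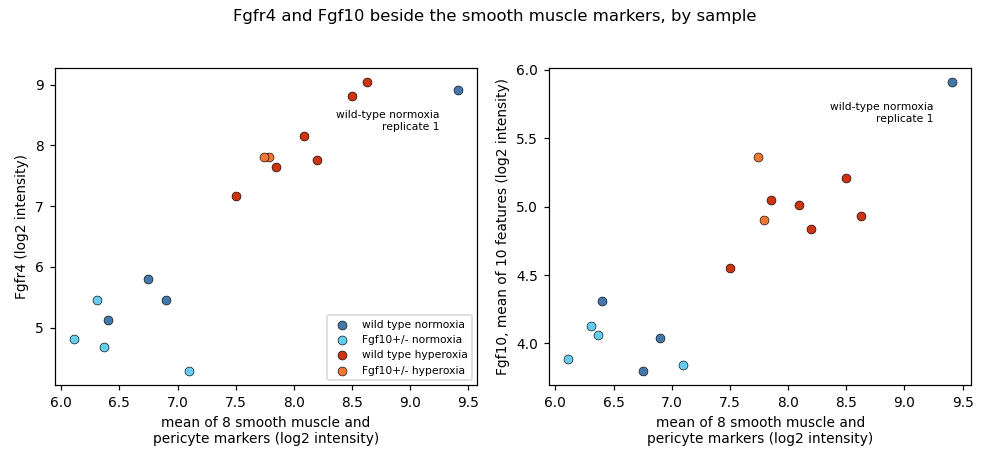
Log2 intensity of Fgfr4 (left panel, y axis) and the mean of the 10 Fgf10 features (right panel) against the mean of 8 smooth muscle and pericyte markers (x axis, log2 intensity); points are the 16 samples, coloured by group. Wild-type normoxia replicate 1 lies at the right end of both panels at 9.41, and the other 7 normoxia samples lie left of the lowest hyperoxia sample at 7.50.

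Fgf1 had a strong signal that did not differ between the groups beyond the spread of the samples. It read 10.23, 10.91, 11.35 and 10.33 in wild-type normoxia and 10.82, 10.09, 11.23 and 10.78 in Fgf10+/- normoxia. In wild-type hyperoxia it ran from 10.11 over a median of 10.54 to 10.89 (n = 6), and the Fgf10+/- hyperoxia samples read 11.00 and 10.54. The averaged difference was -0.09 (-0.55 to 0.37, limma adjusted p = 0.842). Its other feature, at a mean of 5.23, differed by 0.09.

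Fgf18, a ligand expressed by epithelial and mesenchymal cells of the alveoli, was measured by 2 features. The brighter read 8.95, 8.83, 9.61 and 8.19 in wild-type normoxia, and 8.69, 9.51, 9.49 and 9.55 in Fgf10+/- normoxia. It ran from 8.80 to 9.90 with a median of 9.32 in wild-type hyperoxia and read 9.88 and 9.07 in Fgf10+/- hyperoxia. All 4 groups overlapped, and the averaged difference was 0.32 (-0.19 to 0.84, limma adjusted p = 0.449). The other feature, with a mean of 8.16, differed by -0.01.

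Fgf9, at moderate signal, read 6.96, 6.89, 6.31 and 6.02 in wild-type normoxia and 4.93, 6.67, 6.32 and 6.79 in Fgf10+/- normoxia. It ran from 5.73 over a median of 6.21 to 6.75 in wild-type hyperoxia, and read 5.79 and 6.09 in Fgf10+/- hyperoxia. The averaged difference was -0.27 (-0.85 to 0.31, limma adjusted p = 0.6). Fgf2 was at the level of weak signal throughout. Its 11 features had means of 3.86 to 4.22, all under 4.29, and the mean of the 10 that share an accession was 4.00 ± 0.13 (SD, n = 4) and 3.82 ± 0.12 (n = 4) in normoxia and 4.17 ± 0.36 (n = 6) and 4.21 ± 0.18 (n = 2) in hyperoxia, wild type first. Tested one by one, 1 of the 11 features was higher in hyperoxia (1.08, limma adjusted p = 0.0133 over all named features), the one with the lowest mean of 3.86, and the other 10 differed by -0.31 to 0.70 and did not pass. By chosen features, 11.1% of all genes were called in the averaged comparison, with 4.97% called higher.

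**Figure D4:**
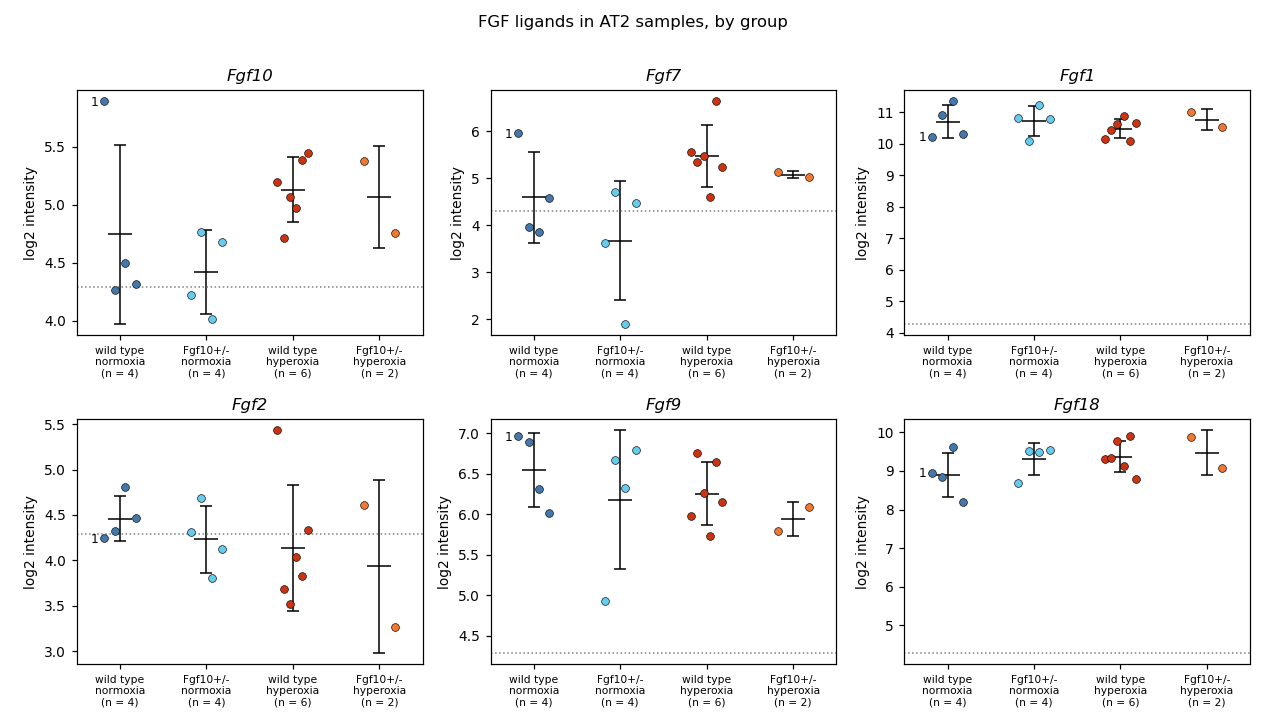
Log2 intensity of the chosen feature of each FGF ligand (y axis, a separate scale per panel) in the 4 groups (x axis); points are samples, bars are the mean ± SD, 1 marks wild-type normoxia replicate 1, and the dotted line is the weak-signal level of 4.29. Fgf10 and Fgf7 lie near or below that line in 7 of the 8 normoxia samples, with replicate 1 at 5.89 and 5.96, while Fgf1 and Fgf18 lie far above it in all groups.

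Within a single genotype no member passed with all 16 samples. In wild type 0 of 10 members were called by limma, and 2 had an unadjusted p under 0.05 (Fgfr3 and Fgfr4), where 3.13% of all genes were called and 3774 had an unadjusted p under 0.05. In Fgf10+/- 0 of 10 were called and 2 had an unadjusted p under 0.05, the same pair, where 2.45% of all genes were called. Without wild-type normoxia replicate 1, Fgfr4 was called in wild type, where 3.07% of all genes were, and in Fgf10+/-, where 2.74% were. With the mean of all features as well, Fgfr4 and Fgf10 were called in each genotype, against 2.42% of all genes in wild type and 2.05% in Fgf10+/-, and the averaged comparison called 4 members against 9.91% of all genes. Wild-type hyperoxia was above wild-type normoxia without overlap for Fgfr3 (3.13% of all genes), and without replicate 1 for Fgf10, Fgf7, Fgfr3 and Fgfr4 (4.84%). The median difference over the 10 members was 0.34 in the averaged comparison, against -0.06 over all genes, with 7 members positive. Without replicate 1 the called members were 4 in the averaged comparison, where 11.3% of all genes were called.

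**Figure D5:**
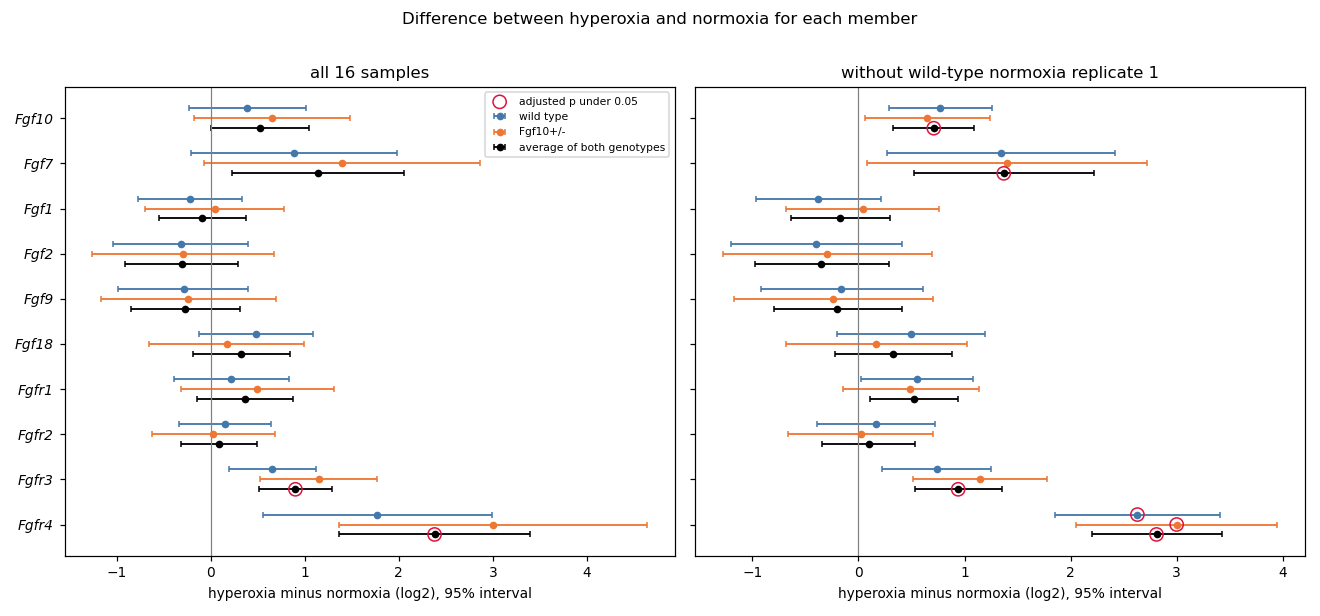
Difference between hyperoxia and normoxia on the log2 scale (x axis) for each member (y axis), in wild type, in Fgf10+/- and averaged over both; points are fitted differences, bars 95% intervals, and red rings mark an adjusted p under 0.05. With all 16 samples (left) Fgfr3 at 0.90 and Fgfr4 at 2.38 are ringed in the average, and without wild-type normoxia replicate 1 (right) Fgf10 at 0.71 and Fgf7 at 1.37 join them.

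The Fgf10+/- genotype showed no called difference in any member. In normoxia 0 of 10 passed by limma, where 0.00965% of all genes were called, and 1 had an unadjusted p under 0.05: Fgfr4 at -1.51 (-2.85 to -0.18, adjusted p = 0.781). That difference was -0.65 without wild-type normoxia replicate 1. The other 9 members differed by -0.92 (Fgf7) to 0.42 (Fgf18). The Fgf7 value was -0.33 without Fgf10+/- normoxia replicate 3 and -0.46 without wild-type normoxia replicate 1. In hyperoxia 0 of 10 passed and 0 had an unadjusted p under 0.05, where 0% of all genes were called and 906 had an unadjusted p under 0.05. There the differences ran from -0.40 (Fgf7, -1.79 to 0.98) to 0.29 (Fgf1, -0.41 to 0.99). These intervals, with 2 Fgf10+/- hyperoxia samples, leave room for a 2-fold decrease in Fgf7, Fgfr4, Fgf9 and Fgf2 and for a 2-fold increase in Fgfr4.

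The effect of hyperoxia was not shown to differ between the genotypes. In the test of the interaction 0 of 10 members passed by limma and 0 had an unadjusted p under 0.05, where 0.00965% of all genes were called. The interaction was 1.23 for Fgfr4 (-0.81 to 3.28) and 0.50 for Fgfr3 (-0.28 to 1.27). For Fgfr4 it was 0.37 without replicate 1.

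The pathway around these members was described by 74 further genes in 7 lists, all 74 on the array. Averaged over genotypes, 3 rose and 3 fell, 6 of 74 where 11.1% of all genes were called, so the lists held no larger share of calls than the array. Of 12 other FGF ligands 2 rose, Fgf23 and Fgf8, with 4 of the 12 weak in all groups. Fgf23, the endocrine phosphate-regulating hormone of bone, was 8.52 ± 0.62 (SD, n = 4) in wild-type normoxia and 12.47 ± 0.91 (n = 6) in wild-type hyperoxia. It stood at 8.78 ± 0.39 (n = 4) and 12.41 ± 0.39 (n = 2) in Fgf10+/-. The averaged difference was 3.79 (limma adjusted p = 8.59e-06), whereas the second Fgf23 feature, at a mean of 3.59 below weak signal, differed by -0.31. Fgf8, a ligand of early embryonic patterning, rose by 1.10 (limma adjusted p = 0.00955) from 4.09 and 3.98 in normoxia to 4.96 and 5.32 in hyperoxia. Both normoxia means lay under the weak-signal level of 4.29, so the size of this difference is uncertain. Its other 2 features differed by 0.16 and -0.61, and with the mean of its 3 features it did not pass (0.22, adjusted p = 0.436).

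Of 18 co-receptors and FGF-binding proteins 1 rose, the heparan sulfate proteoglycan Sdc2 (0.64, limma adjusted p = 0.0315), which stayed called in 9 of 16 fits with a sample removed. Of 13 genes of heparan sulfate synthesis and editing 1 fell, the 6-O-sulfotransferase Hs6st1 (-0.78, limma adjusted p = 0.0257), called in 13 of those 16 fits. The list had a median of -0.28, against -0.06 over all genes. Of 4 genes that direct receptor splicing 1 fell: Ptbp1, an RNA-binding protein that represses exon use. It read 10.58 ± 0.10 (SD, n = 4) and 10.48 ± 0.31 (n = 4) in normoxia and 9.78 ± 0.08 (n = 6) and 9.48 ± 0.06 (n = 2) in hyperoxia, wild type first, a difference of -0.90 (limma adjusted p = 3.65e-04). The second Ptbp1 feature, at a mean of 7.40, differed by -0.38.

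Of 10 adaptors 1 fell, Crk (-0.48, limma adjusted p = 0.0237), whose other 2 features were near weak signal and differed by 0.12 and 0.23. With the mean of its 3 features Crk was at -0.04 (adjusted p = 0.883). Of 13 targets and feedback inhibitors of FGF signalling 0 passed in the averaged comparison. The 2 brightest were Etv5, a transcription factor induced by FGF, at -0.48 (-0.93 to -0.03, limma adjusted p = 0.16), and the ERK phosphatase Dusp6 at 0.29 (-0.07 to 0.65, adjusted p = 0.309). The 4 intracellular homologous factors, which do not signal through receptors, gave 0 calls, with Fgf12 at -0.01 and Fgf13 at -0.57. By genotype, 1 of the 74 rose (Fgf23) and 1 fell (Ptbp1) in wild type, and likewise in Fgf10+/-. These are 2 of 74 in each, where 3.13% and 2.45% of all genes were called. No gene of the 74 passed in either genotype comparison or the interaction.

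For each member the 3 genes with the most similar levels over the 16 samples were taken from 14785 genes that were not weak in all groups. Predicted and clone-named genes had been left out of these. The similar genes are given as a description, since the samples share the same conditions. For Fgfr4 they were Adarb1, Gpm6b and Svep1 (Pearson r of 0.97, 0.97 and 0.96). For Fgf10 they were Adamts8, the smooth muscle myosin Myh11 and Etv1 (0.90, 0.88 and 0.87), and for Fgf7 Chrm1, Rasa3 and Angptl4 (0.89, 0.88 and 0.88). For Fgfr1 they were Islr, Gyg and Wscd2 (0.93, 0.92 and 0.91). For Fgfr3 they were the p53-induced Phlda3, Fkbp1a and Tpm1 (0.96, 0.93 and 0.92). Fgf1 was most like Plekhb1, Cobl and Lsr (0.96, 0.93 and 0.93). Fgfr2 was most like the AT2 phosphate transporter Slc34a2, Rprm and Chat (0.85, 0.82 and 0.81). Fgf18 was most like Mrgprb1, Pakap and Pdgfa (0.85, 0.83 and 0.82), and Fgf9 like Ptpn1, Vezt and Dhrs4 (0.85, 0.83 and 0.81). Fgf2, at weak signal, reached 0.77 at most.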

How the data were processed

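Total RNA was labelled with Cy3 and measured on single-colour arrays, per the labels. The deposited values were log2 intensities, 1 per feature and sample, which the authors had normalized to a shared distribution, as their near-equal quantiles show. The software and background correction were not stated in the sources used here. Base 2 was read from the range of the values, up to 15.98, and the printed folds rest on it. Of 62976 features, 65 with a missing value were left out. Symbols came from the platform annotation, updated through RefSeq (GRCm38.p6), and the feature with the highest mean stood for each of 20725 genes.

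Group means were fitted on all 16 samples with limma 3.58.1 in R 4.3.3, with 6 contrasts and Benjamini-Hochberg adjustment over all genes. Calls needed an adjusted p under 0.05. The fit was also run on simulated data with independent noise, and no result given here rests on that run. Precision is limited by the number of arrays. Members and lists were chosen with earlier results of these data known. Named were all members, called genes of each pathway list (otherwise the 2 brightest) and the 3 genes most like each member. Thymocyte, fibroblast, smooth muscle, endothelial, AT2, AT1, mesothelial, macrophage, erythroid, ciliated and club markers were summarised per sample. Alternatives varied the samples, scaling, feature choice, filter, variance model, weights and replicate block.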

Additional observations from a re-analysis of the deposited data

Results flagged for a closer look

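Of 39 sets of values (each member in each group of 4 or 6 samples, with the means of repeated features besides), 2 held a sample far from the others, and chance marks about 1 in 20. Fgf10 stood at 5.89 in wild-type normoxia replicate 1, with the other 3 samples of the group at 4.27 to 4.50. Fgf18 stood at 8.69 in Fgf10+/- normoxia replicate 1, with the other 3 at 9.49 to 9.55.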

How the results depend on the processing

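Fgfr3 and Fgfr4 stayed called in the averaged comparison in 26 of 27 alternatives each, with differences of 0.58 to 1.00 and 1.37 to 2.81. No difference of a member that passed the test changed direction. The number of called members in the averaged comparison, 2, ran from 2 to 4 when 1 sample was left out, with 4 without wild-type normoxia replicate 1 and 4 with the mean of all features as well. It was 0 without the 4 libraries highest in thymocyte markers, which leaves 12 samples and 467 called genes. In wild type the count of 0 became 1 without wild-type normoxia replicate 1 (range 0 to 1) and 2 with the mean of all features as well. In Fgf10+/- the count of 0 ran from 0 to 2 when 1 sample was left out: 2 without wild-type normoxia replicate 4, and 1 without wild-type normoxia replicate 1, Fgf10+/- normoxia replicate 3 or wild-type hyperoxia replicate 1. It was 1 with only the groups compared, 1 with an intensity trend and robust variance, 1 with arrays centred on the tested genes, 2 with only genes above weak signal, 2 with array weights, and 2 with the mean of all features without wild-type normoxia replicate 1. The share of all genes called in Fgf10+/- was 2.45% in the main fit. Without wild-type normoxia replicate 1 it was 2.74%, and 2.05% with the mean of all features as well. For the other settings it is not given, so these counts show only how the calls moved. A fixed level of 6 in place of 4.29 left 5 members measured. The causes were not tested. Leaving out the thymocyte-high libraries was planned. Centring on tested genes and the joint setting of mean features without replicate 1 were chosen after seeing the data. Leaving out each sample in turn was planned, but giving results without replicate 1 throughout was chosen after seeing the data.

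Deviations of same-numbered samples correlated at -0.16 to 0.24 over 18 pairs (median 0.035), and 4 pairs passed 0.1. Samples with other numbers correlated at -0.352 to 0.27 over 74 pairs (median -0.01), and 10 pairs passed 0.1. With so few pairs, whether the replicate number marks paired samples was not settled. With the number as a replicate block, the averaged count stayed at 2 (Fgfr3 0.86 and Fgfr4 2.10, limma adjusted p = 0.0311 and 0.0245), while called genes fell from 2302 to 1380, in wild type from 649 to 216 and in Fgf10+/- from 507 to 103. Ptbp1 then missed the threshold in wild type (-0.81, limma adjusted p = 0.0653) and in Fgf10+/- (-1.12, adjusted p = 0.0676). Centring on tested genes moved the averaged median over all genes from -0.06 to 0.04 and the split of calls from 1030 higher and 1272 lower to 1450 and 803. Leaving out 1 Fgf10+/- hyperoxia sample leaves 1, assumed to vary like the other groups. Weak signal limits Fgf10, Fgf7 and Fgf2. It also limits the size of the Fgfr4 differences, with a mean of 4.81 in Fgf10+/- normoxia.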

Other observations

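Markers of other cells were compared by sample. The mean of the 7 AT1 markers was 9.42 to 10.73 in normoxia and 9.67 to 10.98 in hyperoxia. That of the 5 mesothelial markers was 9.50 to 10.76 in normoxia and 8.77 to 10.01 in hyperoxia, with 1 of 5 lower by limma in the averaged comparison. Macrophage markers (6) had means of 4.91 to 6.48 and 5.70 to 6.79, with 1 of 6 higher. Erythroid markers (4 of 5 measured) had means of 9.71 to 13.01 and 9.68 to 13.36, ciliated markers (5) of 6.49 to 8.46 and 6.03 to 8.58, and club cell markers (3) of 13.28 to 14.49 and 12.44 to 14.51, normoxia first. The mean of the 10 thymocyte markers was 4.25 to 6.43 in normoxia and 4.01 to 4.42 in hyperoxia. Of these markers 2 were lower by limma in the averaged comparison, where 11.1% of all genes were called, and Rag2 was weak in all groups.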
